A study of Homo sapiens with 2 samples.

Results

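The S100 calcium-binding genes of chromosome 1q21 were examined in whole-genome bisulfite sequencing of 2 acute myeloid leukemia (AML) cell lines. The members were fixed by name as S100A1, S100A2, S100A3, S100A4, S100A6, S100A8, S100A9, S100A10, S100A12 and S100A13, which are 10 of the 20163 protein-coding genes of the annotation (GENCODE lifted to GRCh37, the same build as hg19). For each gene, the CpG dinucleotides within 2 kb of its most upstream annotated transcription start site (TSS) and in its gene body were taken, together with the sequence between the genes. These gene regions held 981 CpG dinucleotides, of which 964 had more than 5 reads in both lines, out of 24454751 such CpG dinucleotides on the nuclear chromosomes. OCI-AML3 is the DNMT3A mutant line, with a heterozygous R882C mutation, and AML5, recorded in the sample labels as OCI-AML5, is wild type for DNMT3A. Both are established human lines that the authors cultured by the supplier's specifications, and no treatment is named for either. Each was sequenced as 1 library.

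S100 proteins are small calcium sensors that carry a pair of EF-hand motifs and mostly act as dimers. S100A8 and S100A9 form calprotectin, the most abundant cytosolic protein complex of neutrophils and a major product of monocytes, and S100A12 is a related calgranulin of granulocytes. The calgranulin genes are expressed as myeloid cells mature. S100A10 is the partner of annexin A2 at the plasma membrane, and S100A4 and S100A6 are broadly expressed members linked to cell motility and proliferation. No RNA was measured in these files, so the text is limited to DNA methylation.

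The methylation level of a CpG dinucleotide is the share of reads that called its cytosines methylated. Each CpG dinucleotide was tested on its own by Fisher's exact test (two-sided) with Benjamini–Hochberg adjustment over all 24454751 of them, and those with an adjusted P-value below 0.05 are named called. With 1 library per line this test compares 2 libraries and covers read sampling only, and there is no replicate check on any difference between the lines. Single CpG dinucleotides are given with 95% Wilson intervals, and differences in the share of calls over a region with 95% Newcombe intervals. Reads that span several CpG dinucleotides make neighboring calls dependent. The intervals over a region are therefore narrower than they should be even for read sampling. With 1 line per genotype, the DNMT3A genotype and the line cannot be told apart. Where values are given as a pair, OCI-AML3 comes first. Region levels are means over CpG dinucleotides and carry no test. The OCI-AML3 library held 902802339 calls (median 27 per nuclear CpG dinucleotide) and the AML5 library 894828667 (median 30). The S100 genes were read more deeply, with a mean of 57.8 calls in OCI-AML3 and 50.1 in AML5 at each tested CpG dinucleotide. With 3 calls as the smallest number counted as detected, the smallest methylated share that the median depth of these genes can show at 1 CpG dinucleotide is 5.36% for OCI-AML3 and 5.88% for AML5.

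The S100 genes as a group were less methylated in OCI-AML3, by about as much as the rest of the genome. Over the 964 CpG dinucleotides of the 10 genes OCI-AML3 had a mean level of 60.2% against 67.4% for AML5, that is −7.19 percentage points. The corresponding difference was −7.35 points over chromosome 1 and −7.77 points over all nuclear chromosomes. Of the 964, 141 (14.6%) were called lower in OCI-AML3, beside 14.7% of all CpG dinucleotides tested, and 23 (2.39%) were called higher, beside 3.86%. Among CpG dinucleotides with at least 40 calls in both lines, 110 of 614 (17.9%) were called lower beside 18.1% of the genome, and 19 (3.09%) were called higher beside 5.12%. The share of calls at the S100 genes was thus close to the background in the lower direction at either depth. Of the 653 CpG dinucleotides with a level above 66% in AML5, 38 (5.82%) were below 20% in OCI-AML3, beside 5.02% of all.

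Within 2 kb of the most upstream TSS, all 10 promoters had a lower mean in OCI-AML3 but none passed 20 points, the threshold used for promoters with at least 10 CpG dinucleotides. The differences ran from −15.8 points at S100A12 to −1.13 points at S100A13, with a median of −7.16, and 84.7% of all promoters had a lower mean in OCI-AML3, with a median of −4.68 points. A decrease of over 20 points was seen in 8.61% of all protein-coding promoters and in 7.21% of those with as many CpG dinucleotides as the S100 promoters (32 to 166). These counts depended on the window: 9 promoters were lower with 1 kb on either side of the TSS, 8 with the upstream 2 kb and 9 with the canonical TSS, that of the transcript the annotation tags as canonical. S100A12 passed 20 points with the share of all calls (−21.6) and with 1 kb on either side (−33.9), and S100A10 with the upstream 2 kb (−26.3). Part of the S100A12 values comes from repeated sequence in its first intron, described with this gene. Of all promoters, 10.0%, 9.38% and 10.2% were lower by over 20 points with these settings in turn. S100A9, at −1.87 points within 2 kb of the TSS, was at −9.05 with 1 kb on either side. The highest levels in both lines were at S100A13, S100A3 and S100A1, and the lowest at S100A10 and S100A6. No other libraries were available to say which neighbors in this order differ beyond the spread between cultures.

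**Figure D1:**
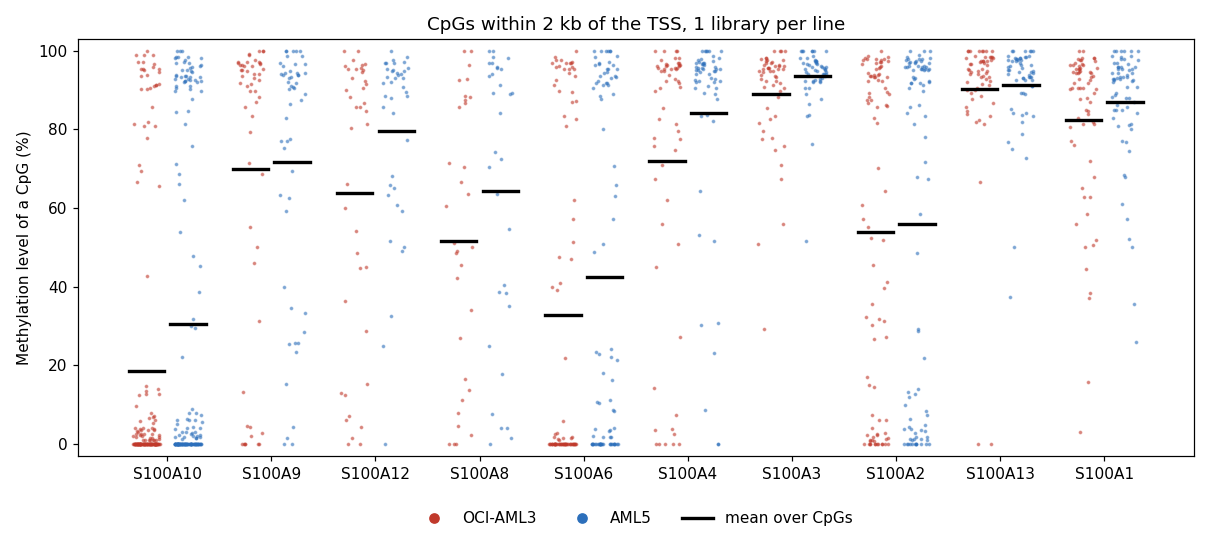
Methylation level (%) of every tested CpG dinucleotide within 2 kb of the most upstream TSS of the 10 S100 genes, in genome order, with OCI-AML3 in red, AML5 in blue and the mean over CpG dinucleotides as a black bar (1 library per line). The means of S100A10 (18.6% and 30.5%) lie far below those of S100A3 (89.0% and 93.6%), and every red bar sits below its blue neighbor.

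The called CpG dinucleotides were unevenly spread over the promoters. S100A12 had the highest share of lower calls, with 13 of 40, followed by S100A6 with 22 of 87, S100A8 with 7 of 32 and S100A4 with 12 of 57. Of the 13 at S100A12, 9 lay in 200 bases of its first intron that are repeated in the genome. S100A10 had 28 of 166 and S100A9 7 of 52. The shares were lower at S100A2 (10 of 90), S100A1 (7 of 68), S100A3 (5 of 54) and S100A13 (2 of 59). Higher calls were present at S100A9 (7), S100A2 (5), S100A12 (3) and S100A8 (1), and the promoters of the other 6 genes had none. The shares of neighboring genes are not independent, because 143 CpG dinucleotides belong to more than 1 of the 10 genes.

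**Figure D2:**
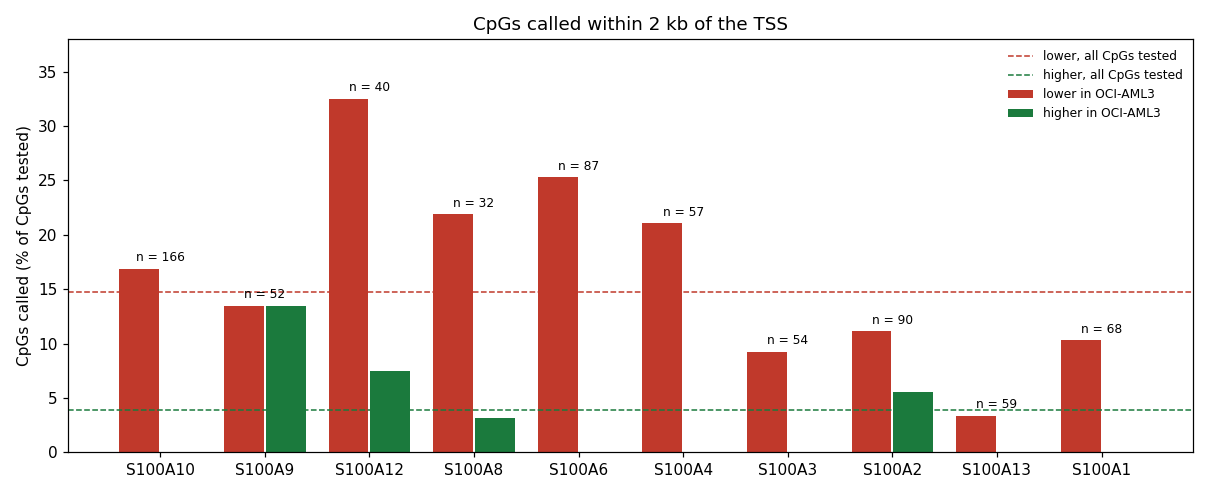
Share (%) of the tested CpG dinucleotides within 2 kb of the TSS that were called lower (red) or higher (green) in OCI-AML3 by Fisher's exact test, per S100 gene, with dashed lines at the shares over all CpG dinucleotides tested (14.7% and 3.86%). S100A12, S100A6, S100A8, S100A4 and S100A10 stand above the lower-call line and the other 5 below it. S100A9 (7 of 52), S100A12 (3 of 40) and S100A2 (5 of 90) stand above the higher-call line.

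Many of the lower calls of the S100 genes lay close together. Runs of at least 3 neighboring tested CpG dinucleotides, all called in 1 direction and at most 300 bp apart, numbered 12 in the lower direction and 1 in the higher direction. The lower runs held 84 of the 964 CpG dinucleotides (8.71%), beside 5.29% over the genome, and 59.6% of the lower calls of the S100 genes lay in a run, beside 36.1% of all lower calls. A run needs close and well-read CpG dinucleotides, and the genome shares were not matched for spacing or depth. Of the 84, 24 belong to 1 run at S100A10, and another run lies in the repeated part of the S100A12 intron. The following sequences are from GRCh37 chromosome 1, on the strand of the gene and 5′ to 3′, with the CpG dinucleotides in capitals. For S100A10, S100A8 and S100A4, which are among the 4 genes with the largest promoter difference, they are the 200 bases outside annotated untranslated regions and within 2 kb of the TSS that hold most called CpG dinucleotides. They lie at chr1:151966631-151966830 (S100A10), chr1:153362812-153363011 (S100A8) and chr1:153523679-153523878 (S100A4), all on the minus strand.
S100A10: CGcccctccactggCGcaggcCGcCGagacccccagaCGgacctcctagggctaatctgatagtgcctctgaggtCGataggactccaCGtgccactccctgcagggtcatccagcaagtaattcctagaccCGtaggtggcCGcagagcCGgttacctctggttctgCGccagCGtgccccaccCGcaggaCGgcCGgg
S100A8: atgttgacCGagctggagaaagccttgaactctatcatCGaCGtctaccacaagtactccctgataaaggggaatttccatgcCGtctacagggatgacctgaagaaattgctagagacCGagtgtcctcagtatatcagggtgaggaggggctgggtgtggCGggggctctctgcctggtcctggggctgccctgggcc
S100A4: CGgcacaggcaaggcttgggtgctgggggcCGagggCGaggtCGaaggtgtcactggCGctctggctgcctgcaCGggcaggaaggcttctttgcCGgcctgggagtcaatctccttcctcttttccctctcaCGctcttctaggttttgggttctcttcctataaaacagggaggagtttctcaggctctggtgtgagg

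A further pair of stretches of 200 bases was picked after its values were seen. The first is the sequence before the TSS of S100A9 (chr1:153330068-153330267, plus strand), and the other holds the CpG dinucleotides of S100A2 that were higher in OCI-AML3 (chr1:153538321-153538520, minus strand).
S100A9: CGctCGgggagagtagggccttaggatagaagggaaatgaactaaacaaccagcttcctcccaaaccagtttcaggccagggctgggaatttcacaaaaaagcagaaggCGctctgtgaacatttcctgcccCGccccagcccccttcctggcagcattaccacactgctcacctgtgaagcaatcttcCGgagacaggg
S100A2: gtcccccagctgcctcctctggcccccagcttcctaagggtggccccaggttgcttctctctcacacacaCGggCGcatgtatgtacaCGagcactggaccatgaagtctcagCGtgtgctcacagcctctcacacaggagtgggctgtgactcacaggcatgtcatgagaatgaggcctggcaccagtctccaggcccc

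Each stretch has 171 overlapping words of 30 bases, and in all 5 stretches every word occurred once in the GRCh37 genome when both strands were searched.

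S100A10, at 151955391 to 151966335 on the minus strand, had the run with the most CpG dinucleotides among the 13 of these genes. Upstream of its TSS a stretch methylated in AML5 was unmethylated in OCI-AML3. The run covered 24 CpG dinucleotides from −629 to −299 bp (151966634 to 151966964), with means of 6.03% for OCI-AML3 against 76.8% for AML5 at a minimum of 56 calls. The first CpG of the printed S100A10 sequence, at −495 bp, was methylated in 4 of 74 reads in OCI-AML3 and in 62 of 64 in AML5. The CpG at −481 bp had the largest difference of the gene, with 3 of 78 reads in OCI-AML3 (3.85%, 1.32 to 10.7%) and 67 of 67 in AML5 (lower limit 94.6%), exact adjusted P = 1.6e-34. All 15 CpG dinucleotides of the printed sequence were called lower, and their mean was 1.51% in OCI-AML3 and 67.1% in AML5.

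The S100A10 TSS itself was unmethylated in both lines. In the 500 bp after the TSS the mean was 0.54% against 1.03% over 52 CpG dinucleotides, and none was called. The unmethylated stretch at the TSS, taken as consecutive tested CpG dinucleotides below 20%, ran from −584 to 1394 bp in OCI-AML3 (132 CpG dinucleotides) and from −262 to 900 bp in AML5 (97). A single CpG at 20% or more ends such a stretch, even where CpG dinucleotides beyond it are low. Within 2 kb of the TSS OCI-AML3 had 133 CpG dinucleotides below 20%, while AML5 had 107. Over the 2 kb upstream the means were 28.8% and 55.1%, a difference of −26.3 points, with 26 of 70 CpG dinucleotides called lower. The gene body mean was 41.7% in both lines, whereas its share of methylated calls was 37.3% against 42.7%, a difference of −5.41 points (−6.85 to −3.96), and it held 4 lower and 5 higher calls among 172. The higher call with the largest difference in the gene body, in the intron at 2936 bp, rested on 44 of 47 reads in OCI-AML3 and 0 of 6 in AML5.

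**Figure D3:**
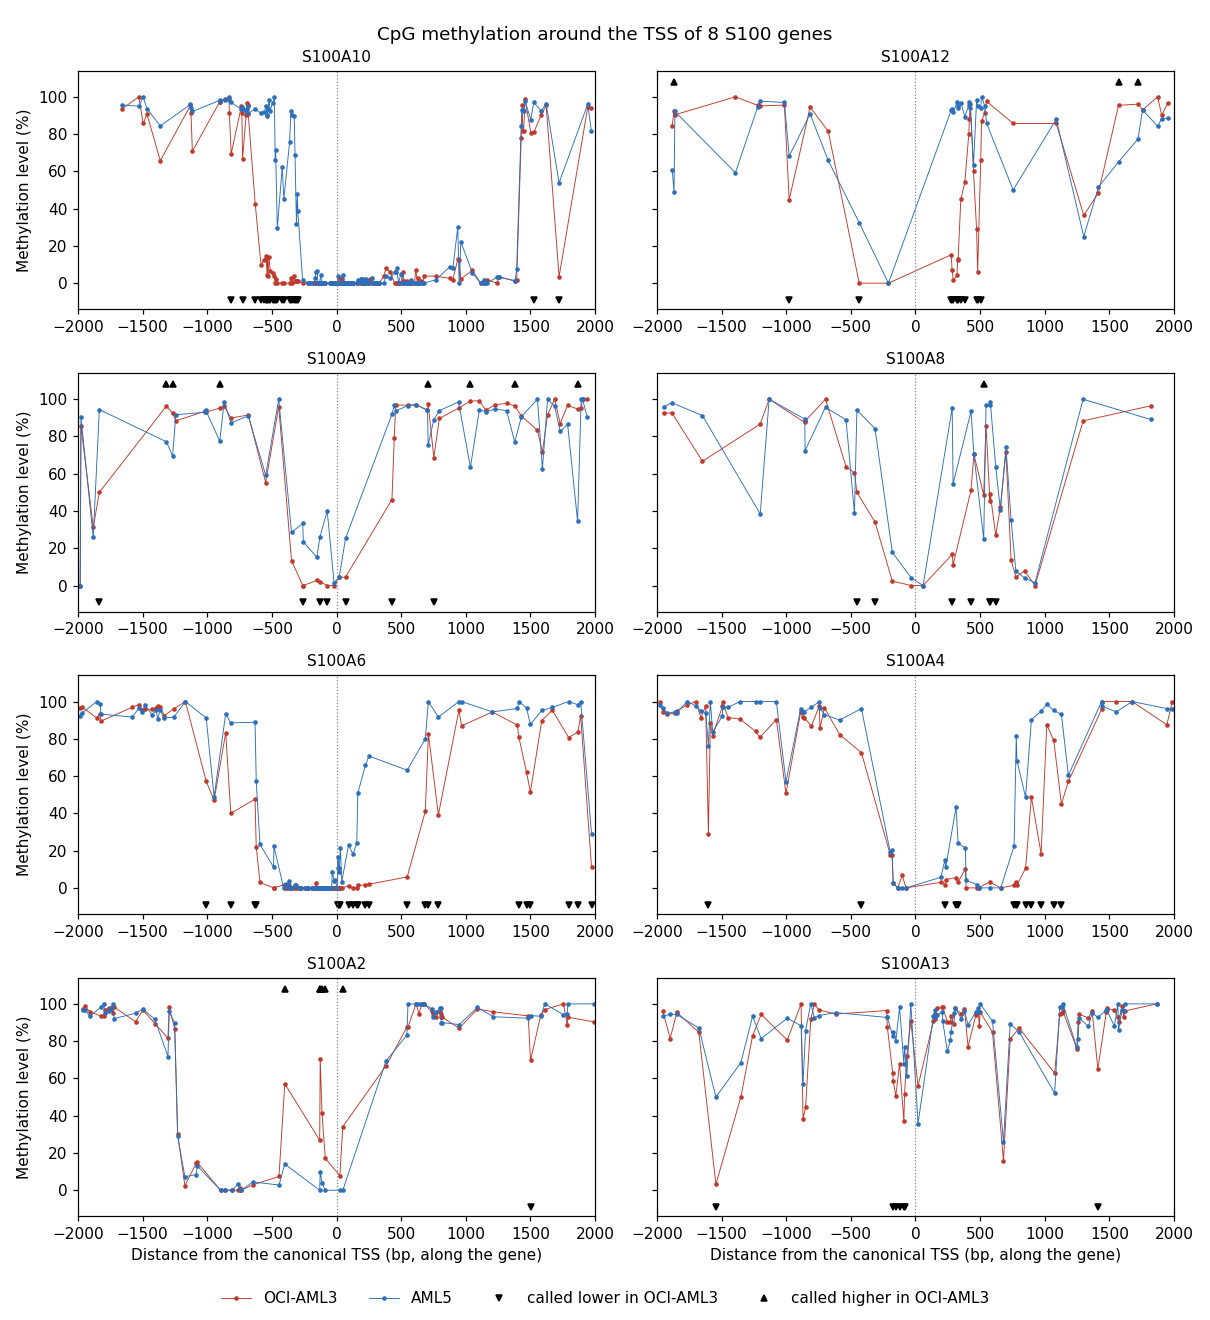
Methylation level (%) of each tested CpG dinucleotide against its distance from the canonical TSS in bp along the gene, for 8 S100 genes, with OCI-AML3 in red, AML5 in blue, triangles below marking CpG dinucleotides called lower and triangles above those called higher in OCI-AML3. The level falls to near 0 around the TSS in both lines for the first 6 genes, and the fall is wider in OCI-AML3. At S100A12 no CpG was tested between −209 and 277 bp, and the wider fall rests on repeated sequence. S100A2 shows the higher calls just before its TSS.

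The 3 calgranulin genes had a short unmethylated stretch at the TSS in both lines, and it spanned more bases in OCI-AML3. These genes have few CpG dinucleotides, so that each stretch rests on a handful of them. At S100A9 it ran from −348 to 70 bp in OCI-AML3 (9 CpG dinucleotides) and from −19 to 21 bp in AML5 (2). At S100A8 it ran from −179 to 291 bp in OCI-AML3 (5) and from −179 to 59 bp in AML5 (3). At S100A12 it ran from −435 to 330 bp in OCI-AML3 (8), whereas in AML5 it was the single CpG at −209 bp. In OCI-AML3 6 of these 8 (277 to 330 bp) lie in the repeated part of the first intron described with this gene, and no tested CpG lay between −209 and 277 bp, so that the length at S100A12 rests on repeated sequence. The threshold of 20% and the comparison of these lengths were chosen after the profiles were seen, and the lengths carry no test.

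S100A9 (153330330 to 153333499, plus strand), the larger subunit of calprotectin, had lower calls near its TSS and higher calls further away. In the printed S100A9 sequence, the CpG at −72 bp was methylated in 0 of 65 reads in OCI-AML3 and in 18 of 45 in AML5 (exact adjusted P = 2.2e-07). The CpG at −129 bp had 1 of 48 and 8 of 31 reads (exact adjusted P = 0.013), and that at −261 bp had 0 of 22 and 6 of 18 (exact adjusted P = 0.029). The remaining pair in the sequence, at −257 and −152 bp, had lower levels in OCI-AML3 but was not called. Nearest to the TSS, at −19 and 21 bp, both lines were at 0 to 4.41%. After the TSS, at 70 bp, 4 of 89 reads were methylated in OCI-AML3 and 19 of 75 in AML5. The lower call with the largest difference of the gene was in exon 2 at 429 bp, in the untranslated part, with 12 of 26 and 23 of 25 reads.

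The S100A9 promoter as a whole had equal numbers of calls in both directions, 7 lower and 7 higher among 52, and its mean was 69.9% against 71.8%. The share of methylated calls was 75.5% and 75.6%, and the interval of their difference (Newcombe) reached from −2.45 to 2.09 points. The gene body was at 87.5% and 85.0%, 2.50 points higher in OCI-AML3, with 5 higher and 3 lower calls. The higher call with the largest difference was in the intron at 1865 bp, with 18 of 19 reads in OCI-AML3 and 9 of 26 in AML5 (exact adjusted P = 0.00044).

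S100A12 (153346187 to 153348097, minus strand) had the largest differences of promoter and gene body among the 10 genes. The promoter mean was 63.9% against 79.7%, and the gene body mean 58.7% against 84.9%, a difference of −26.1 points with 11 lower and 2 higher calls among 27. The share of methylated calls in the promoter was 62.5% and 84.1%, and its difference was −21.6 points (−24.1 to −19.0). All 11 lower calls of the gene body lay in the first intron, 9 of them in 200 bases of repeated sequence. The 6 CpG dinucleotides from 277 to 330 bp after the TSS were methylated at 1.45 to 15.3% in OCI-AML3 and at 91.8 to 97.0% in AML5. The largest difference was at 321 bp, with 3 of 71 reads in OCI-AML3 (4.23%, 1.45 to 11.7%) and 64 of 66 in AML5 (97.0%, 89.6 to 99.2%), exact adjusted P = 2.3e-29.

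Within the S100A12 intron the level in OCI-AML3 changed over short distances. OCI-AML3 had 45.1% at 351 bp and 54.3% at 382 bp, 80.3 to 96.4% from 413 to 425 bp, and 28.8% at 473 bp, whereas AML5 stayed at 89.4% or more at these positions. At 449 bp 33 of 55 reads were methylated in OCI-AML3 and 38 of 60 in AML5. The called CpG dinucleotides formed runs of 8 (19.1% against 93.8%) and 3 (33.7% against 95.8%). This part of the intron is repeated: in the 200 bases that hold most of its called CpG dinucleotides, none of the 171 words of 30 bases occurred only once in the genome. The part of reads from other copies in these values was not tested. The depth was 52 to 72 reads in OCI-AML3 and 58 to 74 in AML5, close to that of the other S100 genes. On the other side of the TSS, the CpG at −435 bp was methylated in 0 of 28 reads in OCI-AML3 and 12 of 37 in AML5 (exact adjusted P = 0.0051), and the CpG at −209 bp in 0 of 70 and 0 of 44. Upstream of the TSS the mean was 5.51 points higher in OCI-AML3 (72.8% against 67.3%), over 12 CpG dinucleotides.

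S100A8 (153362508 to 153363549, minus strand), the smaller calprotectin subunit, was called lower on both sides of an unmethylated TSS. At −453 bp 39 of 78 reads were methylated in OCI-AML3 and 81 of 86 in AML5, and at −313 bp 15 of 44 and 48 of 57. At −32 and 59 bp the levels were 0% in OCI-AML3 and 4.05% and 0% in AML5. After the TSS, at 430 bp, 22 of 43 and 43 of 46 reads were methylated. The largest difference, in the intron at 284 bp, rested on few reads, with 2 of 12 in OCI-AML3 (16.7%, 4.70 to 44.8%) and 20 of 21 in AML5 (95.2%, 77.3 to 99.2%), exact adjusted P = 9.4e-05.

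The printed S100A8 sequence begins at the start codon in exon 2 and holds a run of 3 lower calls (153362928 to 153362973, 40.5% against 86.3%). The CpG dinucleotides at 576 and 579 bp were methylated in 25 of 55 and 26 of 53 reads in OCI-AML3, and in 62 of 64 and 63 of 64 in AML5. A CpG before the start codon, at 528 bp, was the only higher call of the gene, with 34 of 70 reads and 17 of 68 (exact adjusted P = 0.029). The S100A8 promoter mean was 51.7% against 64.2%, and the gene body mean 34.0% and 53.6%, over 32 and 16 CpG dinucleotides.

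S100A6 (153507075 to 153508720, minus strand), calcyclin, had 22 lower and 0 higher calls among 87 promoter CpG dinucleotides. The lower calls were 25.3%, beside 14.7% of all tested, and 3.86% of all were called higher. The promoters of S100A10, S100A4, S100A3, S100A13 and S100A1 also had no higher call. The S100A6 promoter mean was 32.8% against 42.4%, and its gene body mean of 10.3% in OCI-AML3 was lower than that of AML5 (difference −11.7 points). The canonical TSS (153508467) lay in an unmethylated stretch from −592 to 547 bp in OCI-AML3 (52 CpG dinucleotides) and from −409 to 20 bp in AML5 (40). From 7 bp to 41 bp after this TSS OCI-AML3 had 0 methylated reads at each of 7 CpG dinucleotides with 91 to 105 reads, while AML5 had up to 21.4%. Further into the first intron the level in AML5 was 24.1% at 157 bp, 50.9% at 165 bp, 65.8% at 224 bp and 70.7% at 251 bp. In OCI-AML3 it was 0% to 1.92% at these 4 positions, with the largest difference of the gene at 251 bp (1 of 52 against 29 of 41 reads, exact adjusted P = 1.2e-11). A run of 3 lower calls upstream, from −818 to −621 bp, had 36.5% against 78.2%.

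S100A4 (153516089 to 153522612, minus strand), also named metastasin, has an upstream TSS and a canonical TSS 4330 bp further into the gene, at 153518282. In the 500 bp before the upstream TSS both lines were methylated (93.7% and 97.4%), with 0 calls. Of the 12 lower calls within 2 kb of the upstream TSS, 8 lay before it. From −1438 to −1224 bp of the upstream TSS a run of 5 CpG dinucleotides (153523836 to 153524050) had 58.6% in AML5 and a difference of −55.6 points. Part of it is the beginning of the printed S100A4 sequence, whose first CpG, at −1266 bp, was methylated in 2 of 56 reads in OCI-AML3 and 32 of 39 in AML5. Along the sequence the level in AML5 fell to 0 of 12 reads at the last CpG, while OCI-AML3 was at 3.92% or less throughout. The largest difference of the gene was at −1438 bp, with 3 of 40 against 28 of 29 reads (exact adjusted P = 6.1e-13).

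At the canonical TSS of S100A4 the unmethylated stretch ran from −195 to 852 bp in OCI-AML3 (21 CpG dinucleotides) and from −172 to 234 bp in AML5 (7). At 314 bp 6 of 109 reads were methylated in OCI-AML3 and 36 of 83 in AML5. A run of 6 lower calls in the first intron (763 to 972 bp) had 13.9% against 67.6%. The promoter mean was 72.0% and 84.1% around the upstream TSS and 57.4% and 68.2% around the canonical TSS, and 12 and 13 CpG dinucleotides were called lower and none higher.

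S100A3, S100A13 and S100A1 had no unmethylated stretch at the canonical TSS in either line. S100A3 (153519805 to 153521734, minus strand), which is known from hair cuticle and lies inside the bounds of S100A4, had 89.0% against 93.6% over 54 promoter CpG dinucleotides, 51 of which were above 66% in both lines. Its largest difference was in the untranslated part of exon 3, with 14 of 48 reads in OCI-AML3 and 42 of 55 in AML5 (exact adjusted P = 2.6e-05).

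S100A13 (153591263 to 153603836, minus strand), which takes part in the release of fibroblast growth factor 1, had its main run inside the gene. The promoter mean was 90.3% against 91.4% around the upstream TSS, with 2 of 59 CpG dinucleotides called lower. Around the canonical TSS it was 82.8% against 87.2%, with 7 of 68 called lower (10.3%), and a run of 5 lower calls lay from −172 to −84 bp of that TSS (53.2% against 81.6%). In the gene body the mean was 82.3% against 89.9%, with 23 lower (12.9%) and 0 higher calls among 178. The main run lay in the intron from 3974 to 4458 bp after the canonical TSS, with 9 CpG dinucleotides at 9.93% in OCI-AML3 and 73.3% in AML5. The CpG at 4288 bp was methylated in 3 of 100 reads in OCI-AML3 (interval 1.03 to 8.45%) and in 56 of 56 in AML5 (lower limit 93.6%), exact adjusted P = 2e-35. The CpG dinucleotides at 4124, 4166 and 4199 bp were at 0% in OCI-AML3, with 43 to 73 reads, and at 25.4 to 75.4% in AML5.

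S100A1 (153600402 to 153604515, plus strand), best known from heart muscle, overlaps S100A13 head to head. Its promoter mean was 82.4% in OCI-AML3 and 87.0% in AML5, with 7 lower and 0 higher calls among 68. The pair share a run of 5 lower calls (153600065 to 153600153) upstream of both canonical TSSs, with 53.2% in OCI-AML3 and 81.6% in AML5. At the CpG with the lowest adjusted P-value, 123 bp before the canonical TSS of S100A13, 40 of 59 reads were methylated in OCI-AML3 and 58 of 59 in AML5 (exact adjusted P = 0.00011). The call with the largest difference of S100A1 was in the intron and rested on 0 of 11 reads in OCI-AML3 and 10 of 20 in AML5 (exact adjusted P = 0.029).

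S100A2 (153533584 to 153540366, minus strand), first known from epithelial cells, was the only member with a run of CpG dinucleotides called higher in OCI-AML3. The 5 CpG dinucleotides of this run, from −400 to −87 bp of the canonical TSS (153538407 to 153538720), had a mean of 42.5% in OCI-AML3 and 5.56% in AML5. In the printed S100A2 sequence, the CpG at −126 bp was methylated in 66 of 94 reads in OCI-AML3 (70.2%, 60.3 to 78.5%) and in 7 of 71 in AML5 (9.86%, 4.86 to 19.0%), exact adjusted P = 1e-13. Its neighbors at −130, −112 and −87 bp were at 26.8%, 41.3% and 17.1% in OCI-AML3 and at 0%, 3.95% and 0% in AML5. After the TSS, at 49 bp, 14 of 41 and 0 of 30 reads were methylated.

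AML5 thus had the longer unmethylated stretch at S100A2, from −1173 to 49 bp (18 CpG dinucleotides), against −87 to 26 bp in OCI-AML3 (2). The OCI-AML3 stretch ended at the CpG at −112 bp, but most of the AML5 stretch was low in both lines. Of the 18 CpG dinucleotides below 20% in AML5 within 2 kb of the canonical TSS, 13 were below 20% in OCI-AML3 too. Around the upstream TSS the promoter mean was 53.8% in OCI-AML3 and 55.9% in AML5, with 10 lower and 5 higher calls. Around the canonical TSS it was 69.0% and 66.1%, with 1 lower and 6 higher calls, so that the sign of the S100A2 promoter difference depended on the TSS used. The largest lower call, at −1078 bp of the upstream TSS, had 12 of 44 reads in OCI-AML3 and 61 of 63 in AML5 (exact adjusted P = 3.9e-13).

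The sequence between the genes was next considered. From S100A9 to S100A1, 274 kb, the mean was 71.1% in OCI-AML3 and 77.9% in AML5. This difference was −6.75 points, beside −7.77 over all nuclear chromosomes. Of the CpG dinucleotides there, 16.5% were called lower, beside 14.7% of all tested. The stretches between the calgranulins went the other way, with higher means in OCI-AML3. Between S100A9 and S100A12 (12.6 kb) the mean was 81.0% in OCI-AML3 and 74.3% in AML5, 6.76 points higher, with 26 higher and 11 lower calls among 91. Between S100A12 and S100A8 (11.5 kb) it was 86.5% and 82.0%, 4.51 points higher, with 14 higher and 3 lower calls among 120. Over the genome 3.86% of CpG dinucleotides were called higher, and in these stretches 28.6% and 11.7% were.

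The calls between the calgranulins also lay in runs. Between S100A9 and S100A12, 5 CpG dinucleotides from 153338703 to 153338983 were at 96.6% in OCI-AML3 and 47.2% in AML5, and 3 from 153337417 to 153337452 were at 85.6% and 46.5%. In the same stretch a run of 8 from 153341398 to 153341498 went in the lower direction, with 92.8% in AML5 and a difference of −69.8 points. Between S100A12 and S100A8, 3 CpG dinucleotides from 153356646 to 153357002 were at 86.3% and 50.4%. Beyond S100A8, 3 more from 153370034 to 153370085 were at 89.2% and 27.3%. The remaining stretches were lower in OCI-AML3, with −9.56 points between S100A8 and S100A6 (141 kb, 62.5% against 72.0%), −2.76 between S100A6 and S100A4, −5.29 between S100A3 and S100A2 and −5.51 between S100A2 and S100A13. S100A4 and S100A3, and S100A13 and S100A1, have no sequence between them.

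**Figure D4:**
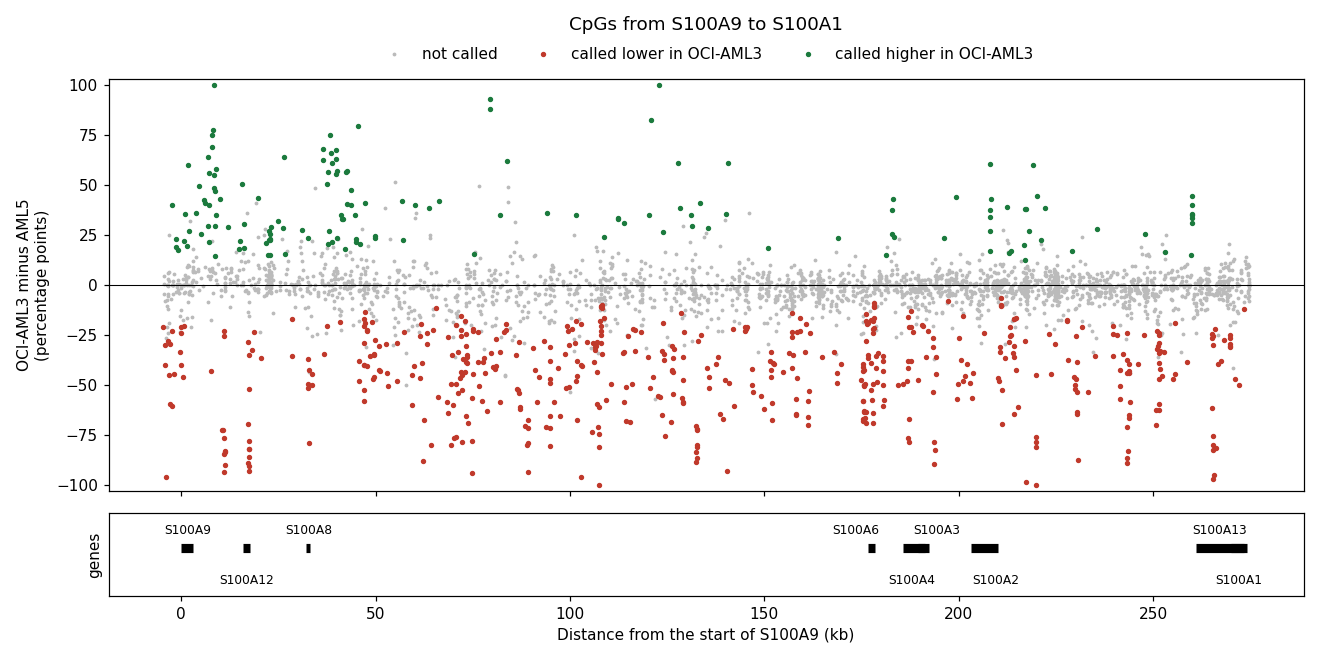
Difference in methylation level (OCI-AML3 minus AML5, percentage points) at each tested CpG dinucleotide against the distance in kb from the start of S100A9, with CpG dinucleotides called lower in red, called higher in green and not called in gray, and the 9 genes drawn to scale below. Green points are densest from S100A9 to just past S100A8, where the stretches between the genes were 6.76 and 4.51 points higher in OCI-AML3, and red points prevail from there to S100A1.

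S100A10 is separated from the other 9 genes by the epidermal differentiation complex, many of whose genes encode proteins of the cornified envelope of skin. This 1.36 Mb stretch, which also holds S100A11, had a larger decrease than the 10 S100 genes, at 46.7% against 62.4%. Of its CpG dinucleotides, 30.4% were called lower, beside 14.7% of all tested. In windows of 10 kb up to S100A9, including those that hold S100A10 itself, 135 of 135 windows had a lower mean in OCI-AML3 and 32 were lower by over 20 points. From S100A9 to S100A1, 24 of 28 windows were lower and 0 by over 20 points. Over all autosomes 84.2% of windows were lower and 16.6% were lower by over 20 points. The 4 higher windows lay from S100A9 to just past S100A8, led by the window that holds S100A9 (81.4% against 70.8%), and the window with S100A12 among them was lower (70.3% against 83.3%).

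Other genes of the family and its partners were taken as lists, by promoter mean. Of 12 genes listed as other S100 genes, 11 were annotated (S100A5, S100A7, S100A7A, S100A11, S100A14, S100A16, S100B, S100G, S100P, S100PBP and S100Z). Of these, 9 had a lower mean in OCI-AML3 (81.8%, beside 84.7% of all promoters), none by over 20 points (beside 8.61%). Their median was −6.97 points. S100PBP (−13.0 points) encodes a protein that binds S100P and is no member of the family; without it, a count made after its value was seen, 8 of 10 had a lower mean and the median was −6.08. S100A11, which lies between S100A10 and the skin genes, had 49.1% and 56.2% around its upstream TSS but 3.33% and 35.0% around its canonical TSS, chosen here after its values were seen. Inside it, 39 CpG dinucleotides from 152009712 to 152010436 formed a run at 7.34% in OCI-AML3 and 86.4% in AML5. Of 8 receptor and partner genes with at least 10 CpG dinucleotides, 1 was lower by over 20 points around the upstream TSS (12.5%, beside 8.61% of all promoters). Their median was −1.91, beside −4.68 for all promoters. Around the canonical TSS 2 were lower by over 20 points (beside 8.72% of all promoters), and the median was −10.3 (beside −4.63). One of them was ANXA2, which encodes the annexin partner of S100A10, with 11.1% against 32.7% there but 90.9% against 92.4% around its upstream TSS. The gene past 20 points at either TSS was AGER, which encodes the receptor for advanced glycation end products that S100A12 and S100B bind, with 72.6% in OCI-AML3 and 93.6% in AML5.

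Of the 45 genes of the epidermal differentiation complex with at least 10 CpG dinucleotides, 44 had a lower mean (97.8%, beside 84.7% of all promoters) and 6 were lower by over 20 points (13.3%, beside 8.61%), with a median of −14.5. The 3 largest decreases were at the late cornified envelope genes LCE3E (11.7% and 58.6%), LCE5A (30.2% and 66.5%) and LCE1E (28.4% and 64.5%). The 1 gene with a higher mean, named after its values were seen, was SPRR2B, with 49.3% against 34.1% over 15 CpG dinucleotides. The median of the 10 S100 promoters (−7.16 points) lay between that of the complex and that of all promoters (−4.68).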

How the data were processed

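Whole-genome bisulfite sequencing was available for OCI-AML3 and AML5, each as 1 unreplicated library. Paired-end reads were aligned by the authors to hg19 with Bismark and Bowtie 0.12.8 (submitters' processing notes). The deposited values are, for each CpG dinucleotide, the counts of calls that were methylated and of those that were not, both strands added and without normalization. Removal of duplicate reads is not given in the sources used here. Counts were read as deposited, the totals being 902802339 and 894828667 calls. Levels were taken at CpG dinucleotides with more than 5 calls in both lines, as in the study. Fisher's exact test (two-sided) was run on each of the 24454751 nuclear CpG dinucleotides and Benjamini–Hochberg adjusted over all, and it was tested on simulated data first. Promoters spanned 2 kb before and after the TSS furthest upstream, from GENCODE v44 lifted to GRCh37. Positions are those of the files, which give the G of each CpG.

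The members, gene lists and tests were chosen with earlier results of these data known. All 10 members were named. Of other lists, the 3 largest decreases and increases past 20 points were named, and for each member the called CpG dinucleotides with the largest difference. No epidermal, S100 or partner promoter was higher by over 20 points. Alternatives covered the minimum number of calls, the adjusted P-value, the size of difference, averaging over calls, the promoter window, the TSS, windows and runs. A minimum of 40 calls was added after seeing the data. Tests ran in Python 3.11.15 with numba 0.67.0, scipy 1.17.1 and numpy 2.4.6, tables in pandas 2.3.3, and plots in matplotlib 3.10.9. Sequences of S100A12 and S100A13 are not reported here.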

Additional observations from a re-analysis of the deposited data

How the results depend on the processing

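The calls at the 10 genes stayed within 1.5 times of 141 lower and 23 higher under every alternative run (110 to 146 lower, 18 to 28 higher), and the runs at 8 to 12 lower and 1 higher. The median promoter difference of −7.16 points became −8.02 with the share of all calls, −7.89 with 1 kb on either side of the TSS, −6.15 with the 2 kb upstream only and −8.23 with the canonical TSS. Over all promoters the median of −4.68 points became −6.32, −3.10, −5.05 and −4.63 with these settings in turn. The number of S100 promoters lower by over 20 points, 0 in the report, was 1 with the share of all calls, 1 with 1 kb on either side and 1 with the upstream 2 kb. Of all promoters, 8.61% in the report and 10.0%, 9.38% and 10.2% with these settings in turn were lower by over 20 points. The median gene body difference of −6.22 points became −6.81 with the share of all calls and −2.98 outside 2 kb of the TSS, where 6 genes had a value. The mean difference between the genes, −13.6 points, became −13.2 with the share of all calls. Signs were reversed at S100A13 with 1 kb on either side (2.43) and with the 2 kb upstream (0.68), at S100A12 with the 2 kb upstream (5.51), at S100A2 with the canonical TSS (2.88) and in its gene body with at least 10 calls (0.18), and at the S100A10 gene body outside 2 kb (1.73). No paired analysis was possible because each line has 1 library. Depth limits single CpG dinucleotides at S100A8 and S100A1, where called CpG dinucleotides rested on 12 and 11 reads in OCI-AML3.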
